A study of Mus musculus with 15 samples.

Results

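Liver RNA of 6 ovariectomized mice on a high-fat diet was compared, 3 given conjugated estrogens together with bazedoxifene (CE+BZA) and 3 given vehicle (Veh), out of 15 mice in the whole series. The 6 mice were taken by the group in their sample labels, and all 2545 genes of the deposited table were compared. The other 9 mice were given conjugated estrogens alone (CE), bazedoxifene alone (BZA) or estradiol (E2), with 3 mice in each group. All 15 were C57BL/6 females (C57BL/6J in the study's methods) that started the high-fat diet (45% of calories from fat) at 8 weeks of age, were ovariectomized at 10 weeks and were then treated for 6 weeks. Every group, Veh included, therefore carried the ovariectomy and the diet, and intact mice were not analysed here. The doses in the study's methods were 2.5 mg per kg per day for CE and 3 mg per kg per day for BZA, with no separate doses for the combination. RNA-seq was run on 3 of the 8 mice of a treatment group, and each library was from 1 mouse. Replicate numbers follow the sample descriptions (Veh mice 1, 4 and 7 and CE+BZA mice 1, 2 and 3) and are used here to name the animals.

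Conjugated estrogens are a mixture of estrogens used to treat menopausal symptoms, and bazedoxifene is a selective estrogen receptor modulator that blocks the receptor in uterus and breast and activates it in bone. Both bind the estrogen receptors, ligand-activated transcription factors that occupy estrogen response elements in DNA or act through other factors. In liver, estrogen receptor alpha takes part in the control of lipid storage, and ovariectomy with a high-fat diet leads to fat accumulation in mouse liver. Many liver genes also differ between the sexes, largely through the pattern of growth hormone release and its signalling through STAT5b, which estrogens can alter.

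To show the DNA next to the genes with the smallest p-values, the 250 bases before the start site are printed for 3 genes that were higher with CE+BZA (AA986860, Tmem200b and Clic3) and for the gene with the smallest p-value, Pla2g4f, which was lower. The sequences are from RefSeq on GRCm38.p6, 5′ to 3′ on the strand of the gene, and capitals mark GGTCA on either strand, which is 1 arm of the palindromic estrogen response element.
AA986860, chr1:130731726-130731975 (plus strand): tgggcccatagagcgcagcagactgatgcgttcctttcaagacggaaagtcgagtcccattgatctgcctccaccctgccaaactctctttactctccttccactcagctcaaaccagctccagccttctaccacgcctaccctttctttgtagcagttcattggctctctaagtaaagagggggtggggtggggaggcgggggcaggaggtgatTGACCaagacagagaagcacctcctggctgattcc
Tmem200b, chr4:131921521-131921770 (plus strand): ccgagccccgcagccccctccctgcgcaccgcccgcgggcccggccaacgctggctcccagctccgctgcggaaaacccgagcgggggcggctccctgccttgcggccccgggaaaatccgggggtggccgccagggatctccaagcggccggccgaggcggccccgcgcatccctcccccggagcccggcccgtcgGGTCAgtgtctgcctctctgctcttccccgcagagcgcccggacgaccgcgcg
Clic3, chr2:25456593-25456842 (plus strand): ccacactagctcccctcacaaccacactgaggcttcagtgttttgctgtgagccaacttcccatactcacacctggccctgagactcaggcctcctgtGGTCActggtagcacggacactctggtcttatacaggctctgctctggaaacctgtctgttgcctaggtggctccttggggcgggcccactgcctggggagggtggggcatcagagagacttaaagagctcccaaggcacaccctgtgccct
Pla2g4f, chr2:120314166-120314415 (minus strand): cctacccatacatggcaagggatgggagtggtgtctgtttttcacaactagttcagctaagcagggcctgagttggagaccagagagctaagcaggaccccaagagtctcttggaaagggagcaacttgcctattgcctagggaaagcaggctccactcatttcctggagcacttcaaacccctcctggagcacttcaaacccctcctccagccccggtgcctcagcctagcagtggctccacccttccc
The GGTCA match began at position -35 from the start site of AA986860, at -53 in Tmem200b and at -152 in Clic3, and these letters were not in the Pla2g4f window. In windows of 250 bases before to 50 bases after the start, 8 of the 14 genes that the table of promoters holds, among 20 genes described first, had GGTCA on either strand. So did 739 of 1745 promoters of genes in the expression table (42.3%) and 40.5% of all 32851 promoters, so the match is common. The 8 were AA986860, Tmem200b, Clic3 and Egfr, which were higher, and Cyp3a59, Ccl22, Krt23 and Cyp2c55, which were lower. It was absent from the higher genes Mdfi and Sult5a1 and the lower genes Pla2g4f, Mogat1, Eda2r and Hao2, so the printed genes do not show a link with direction. No promoter was held for Bmp7. The full palindromic element (GGTCA and TGACC with any 3 bases between them) was in 0 of the 1745 promoters and in 23 of all promoters. A STAT5 site, TTCNNNGAA, was in 129 of the 1745 (7.39%), and the direct repeat of AGGTCA with any 1 base between the copies, which contains GGTCA, was in 1 of them. Neither was in the 14 promoters.

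The values are log2 expression after DESeq normalization, with each gene set to 0 at its median over the 15 mice, so levels of different genes cannot be compared. For all 2545 genes, the mean of at least 1 treatment lay more than 1 log2 unit from that of Veh, so the table holds genes selected by fold change. The CE+BZA mean lay that far from Veh in 1113 genes (43.7%), and the others are listed through another treatment. That selection rests on the same mice that are compared below. The p-values, FDR, counts without overlap and shares called therefore do not describe unselected genes. In 1045 genes (41.1%), 2 or more of the 15 mice shared the lowest value, a floor left by the processing. A difference from mice at the floor is a lower bound in size. The depth in reads is not given in the table. The root-mean-square log2 distance over all genes was 1.01 to 1.21 between Veh mice, 1.12 to 1.24 between CE+BZA mice and 1.22 to 1.65 between a mouse of each group.

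Which liver genes changed with CE+BZA relative to Veh was tested with limma over all 2545 genes. With a fold change over 2 and a false discovery rate (FDR) under 0.05, 3 genes passed, 0.118% of the genes. They were Bmp7 and AA986860, which were higher (2 genes, 0.0786%), and Pla2g4f, which was lower (1 gene, 0.0393%). At an FDR under 0.1, 20 genes passed, 7 higher and 13 lower. With an unadjusted p under 0.05 and a fold change above 2, 294 genes were higher (11.6%) and 243 lower (9.55%), in all 21.1% of the table. Their FDR reached up to 0.235, and single genes of that set are therefore candidates. In the following text, "rose" and "fell" mean this unadjusted rule, and the FDR is given for the genes described. The median log2 difference was 1.44 in the genes that rose and -1.47 in those that fell, against 0.08 over the whole table. All CE+BZA mice were above all Veh mice in 376 genes (14.8%) and below them in 348 genes (13.7%). The split between directions depended on the scaling, since genes that rose made up 54.7% of the calls as deposited but 43.7% (233 against 300) after quantile normalization. Without CE+BZA mouse 3, the 537 calls became 352.

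**Figure D1:**
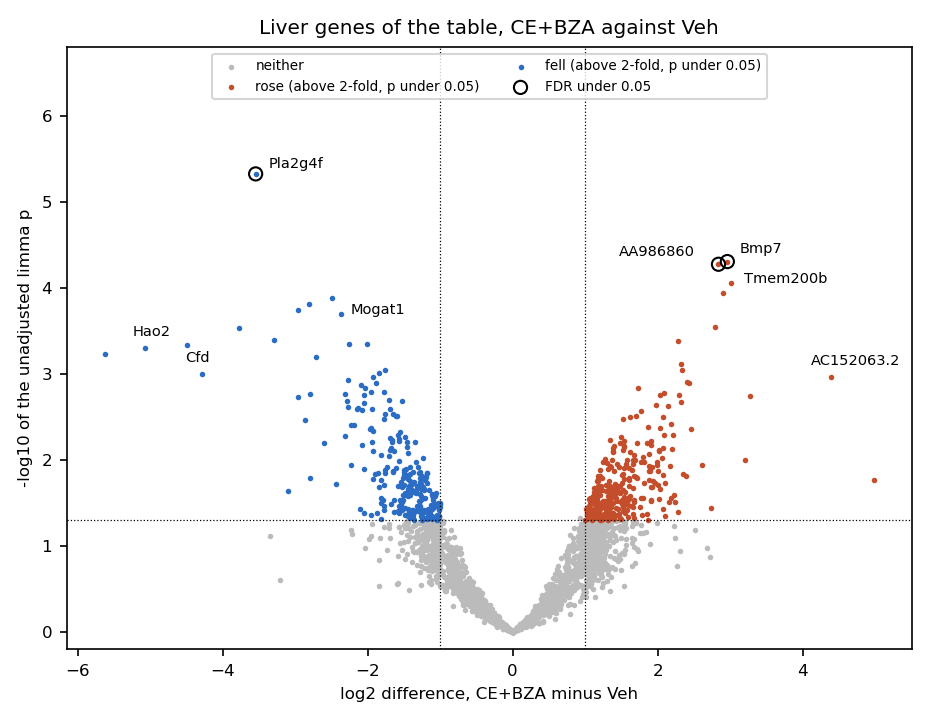
Log2 difference (CE+BZA minus Veh, x axis) against the -log10 of the unadjusted limma p (y axis) for each of the 2545 genes, with dotted lines at a fold change of 2 and a p of 0.05. The 3 circled genes, Pla2g4f, Bmp7 and AA986860, had an FDR under 0.05, and genes further out on the x axis such as Hao2, Cfd and AC152063.2 had larger differences with larger p-values.

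Pla2g4f encodes a cytosolic phospholipase A2, an enzyme that releases fatty acids from membrane phospholipids. It was at 2.93, 2.81 and 1.41 in Veh mice 1, 4 and 7 and at -1.17, its floor, in all 3 CE+BZA mice. The log2 difference of -3.55 (SE 0.54, FDR 0.0121) corresponds to at least 11.7-fold lower expression. The groups did not overlap. Bmp7, a secreted bone morphogenetic protein, was at -1.58, -1.48 and -2.42 in the Veh mice and at 0.31, 1.18 and 1.91 in CE+BZA mice 1, 2 and 3. Its log2 difference was 2.96 (SE 0.55, FDR 0.0451), and CE+BZA mouse 1 lay nearest to the Veh mice. AA986860, a protein-coding gene, was at -1.82, -1.31 and -1.81 in the Veh mice. It was at 1.05, 1.49 and 1.03 in the CE+BZA mice, a log2 difference of 2.84 (SE 0.53, FDR 0.0451) and the 3 CE+BZA mice lay close together. On GRCm38, Pla2g4f is at chr2:120299957-120314165 and Bmp7 at chr2:172868012-172940321, both on the minus strand, and AA986860 is at chr1:130731976-130744622 on the plus strand. Pla2g4f kept its call without Veh mouse 7 or without CE+BZA mouse 1, Bmp7 kept it without CE+BZA mouse 1 only, and AA986860 lost it whichever of the 6 mice was left out.

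The other genes with the smallest p-values among those with no overlap between the 6 mice had an FDR of 0.0561 to 0.108. Of those that were higher, Tmem200b, a transmembrane protein gene, was at -0.51, -0.32 and -1.03 in the Veh mice and at 2.07, 2.51 and 2.60 in the CE+BZA mice. The log2 difference was 3.02 (SE 0.59, FDR 0.0561). Clic3, a chloride intracellular channel protein gene, was at -2.22, -1.85 and -1.72 with Veh and at 0.52, 0.45 and 1.96 with CE+BZA, a difference of 2.91 (SE 0.58, FDR 0.0561). Egfr, the epidermal growth factor receptor of hepatocytes, was at -1.99, -1.31 and -1.65 with Veh and at 0.29, 1.63 and 0.32 with CE+BZA, a difference of 2.40 (FDR 0.108). Fst encodes follistatin, which binds and neutralizes activins, and was at -1.80, -0.81 and -0.97 with Veh and at 0.60, 1.58 and 1.23 with CE+BZA (difference 2.33, FDR 0.105). Chrdl2, a chordin-like BMP antagonist, was at its floor of -1.77 in all 3 Veh mice and at 1.51, 1.05 and 0.51 in the CE+BZA mice, at least 6.93-fold higher (FDR 0.0683). Mdfi, an inhibitor of myogenic transcription factors, differed by 2.28 (FDR 0.0744) with 2 Veh mice at the floor, and the sulfotransferase Sult5a1 by 2.32 (FDR 0.0973). The largest difference of these genes, 4.40 (SE 1.12, FDR 0.108), was that of AC152063.2, named only by its clone, with Veh mice at -2.11, -0.40 and 0.89 and CE+BZA mice at 2.5, 3.28 and 5.79.

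Of the genes that were lower, Mogat1, which encodes a monoacylglycerol acyltransferase that makes diacylglycerol for triglyceride synthesis, had values that lay close together within each group. It was at 2.31, 2.04 and 2.25 in the Veh mice and at 0.03, -0.23 and -0.32 in the CE+BZA mice, a difference of -2.37 (SE 0.50, FDR 0.0573). Hao2, a peroxisomal hydroxyacid oxidase, had the largest difference of these genes, -5.07 (SE 1.18, FDR 0.0758), with Veh mice at 1.73, 1.44 and 2.36 and CE+BZA mice at -2.02, -3.18 and -4.48. The imprinted noncoding RNA H19 was at 0.48, 1.69 and 1.34 with Veh, and 2 of the 3 CE+BZA mice were at its floor of -3.97, with the third at -2.03 (difference -4.50, FDR 0.0744). The keratin gene Krt23 was at 3.19, 2.53 and 3.70 with Veh and at -0.08, -1.73 and -0.11 with CE+BZA (difference -3.78, FDR 0.0683). In whole liver, fewer cells of a type that expresses a gene and less RNA per cell cannot be told apart. Eda2r, a receptor of the tumour necrosis factor receptor family, was at 1.15, 0.25 and 2.54 with Veh and at -0.64, -3.62 and -1.68 with CE+BZA (difference -3.29, FDR 0.0744). Ccl22, a chemokine of dendritic cells and macrophages, differed by -2.80 (FDR 0.0562), and Lgals1, the lectin galectin-1, by -2.01 (FDR 0.0744). The P450 genes Cyp3a59 and Cyp2c55 differed by -2.49 (FDR 0.0561) and -2.26 (FDR 0.0744). Reads of Cyp3a59 could be shared with close Cyp3a paralogs, so its value is uncertain.

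**Figure D2:**
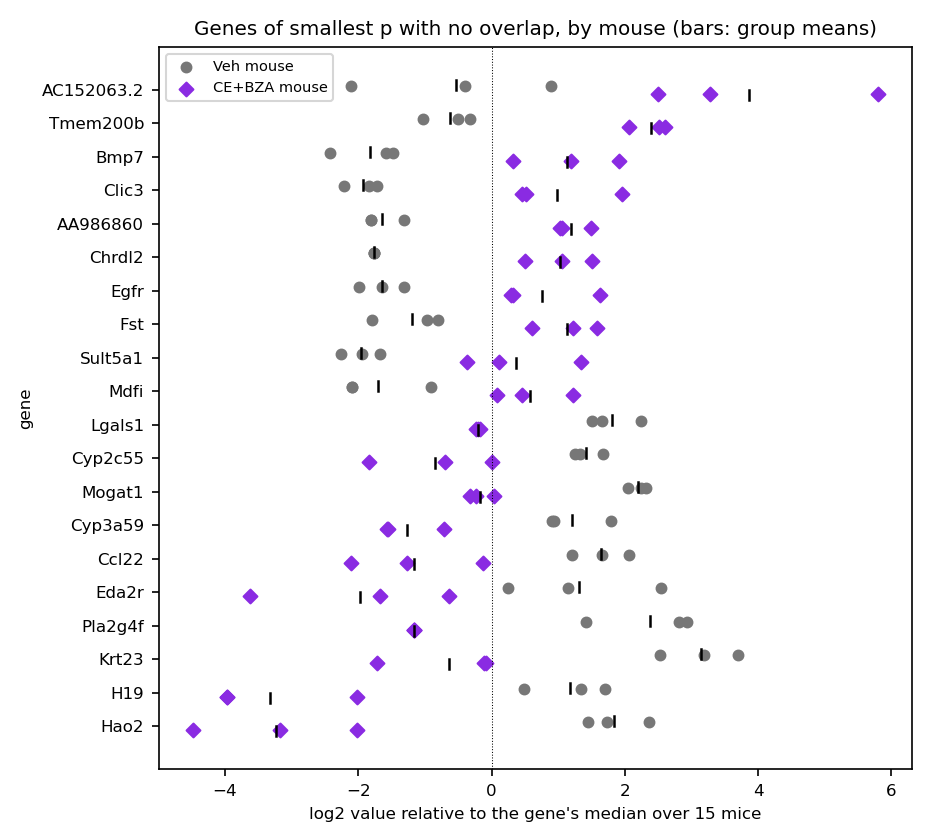
Log2 value relative to the median over 15 mice (x axis) for 20 genes (y axis), with a circle for each Veh mouse, a diamond for each CE+BZA mouse and a bar at each group mean. No gene shows overlap between the groups, and the 3 CE+BZA diamonds of Pla2g4f coincide at its floor of -1.17.

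The genes were then read by group. Among the 20 lists other than cell type markers, the largest shares of members that fell were in the female-biased liver genes (54.5%) and in fatty acid oxidation and peroxisomal genes (52.4%), against 9.55% of the table. The largest shares that rose were in immediate early genes (47.1%), heat shock and unfolded protein response genes (42.9%) and BMP, TGF-beta and activin signalling (38.5%), against 11.6% of the table. Only members held by the table could be counted, and some lists share members. For every list and marker set below, the shares to compare with are these 11.6% that rose and 9.55% that fell. A list with shares near these values is not set apart from the table.

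**Figure D3:**
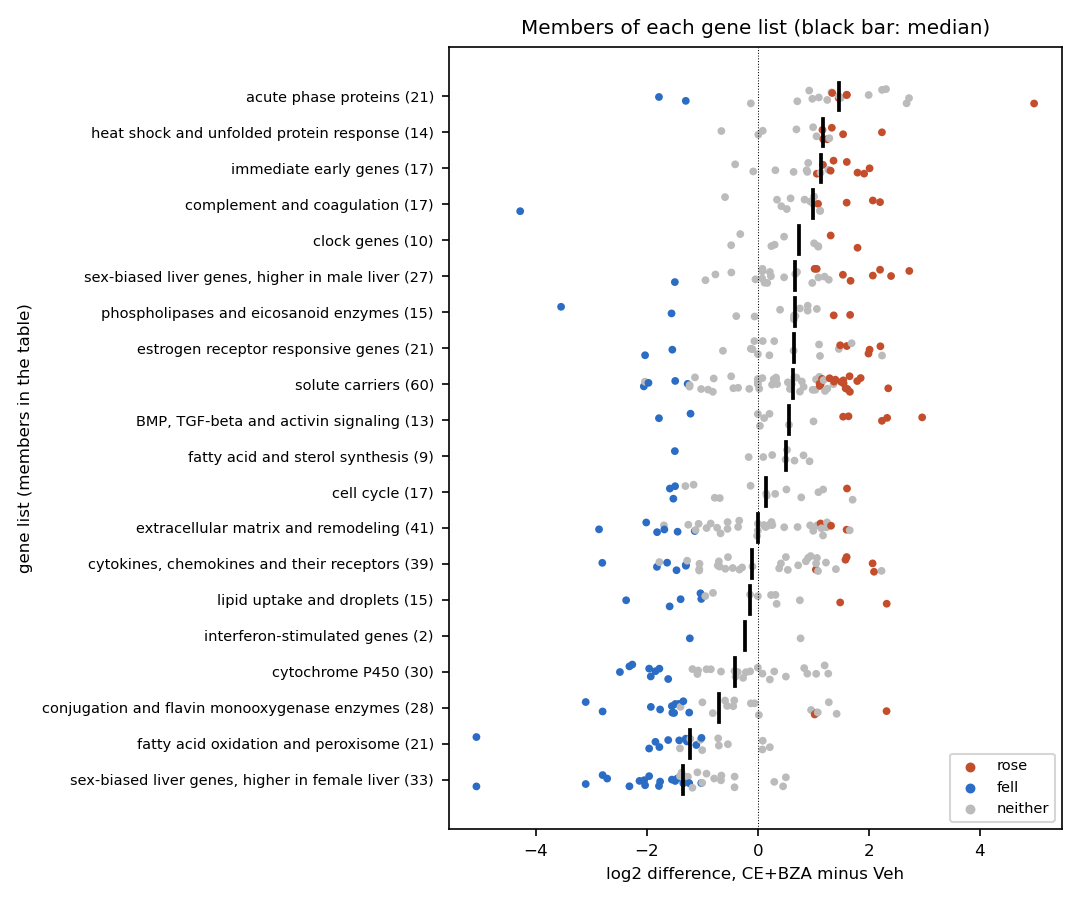
Log2 difference (CE+BZA minus Veh, x axis) of each member of 20 gene lists (y axis, members in the table in brackets), coloured by whether it rose or fell at a fold change above 2 and an unadjusted p under 0.05, with a black bar at the list's median. The medians run from -1.34 in the female-biased genes to 1.46 in the acute phase proteins, and the latter holds more grey than coloured points.

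Of 59 genes listed as higher in female than in male liver, 33 were in the table. Of these 18 fell and 0 rose, the median log2 difference was -1.34, and 30 of the 33 were below 0. The mean of the 33 genes was 0.40, 0.27 and 0.61 in the Veh mice and -0.81, -1.13 and -1.05 in the CE+BZA mice, so the groups lay apart and each group's mice lay close together. Besides Hao2, they included Prom1, a membrane glycoprotein (difference -2.72, FDR 0.0842), and the water channel Aqp4 (-2.03, FDR 0.109), which was at 1.69, 1.42 and 2.22 with Veh and at 0.00, 0.14 and -0.91 with CE+BZA. The hydroxysteroid sulfotransferase Sult2a5 was at 1.15, 0.86 and 1.40 with Veh and at -0.87, -0.57 and -0.44 with CE+BZA (-1.76, FDR 0.105). A1bg, a plasma glycoprotein gene, was at 1.48, -0.05 and 0.73 with Veh and at -2.10, -0.28 and -1.85 with CE+BZA (-2.13, FDR 0.119), so CE+BZA mouse 2 was close to Veh mouse 4. With any of the 6 mice left out, 15 to 18 members fell. Of the 18, 10 also belong to the oxidation, P450 or conjugation lists, 5 of them Sult2a genes similar enough to share reads.

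Of 69 genes listed as higher in male liver, 27 were in the table, and 8 rose (29.6%) and 1 fell (3.7%), with a median of 0.68. The mean of the 27 genes was -0.30 to 0.09 in the Veh mice and 0.50 to 0.61 in the CE+BZA mice. C8b and C8a, which encode chains of the complement membrane attack complex, differed by 2.20 (FDR 0.175) and 2.07 (FDR 0.207), and the hedgehog ligand gene Ihh by 1.53 (FDR 0.173). C8b was at -1.65, -1.16 and -0.42 with Veh and at 0.98, 1.32 and 1.08 with CE+BZA. The 1 member that fell was Elovl3, a fatty acid elongase (-1.50, FDR 0.205), which did not pass without CE+BZA mouse 3 or Veh mouse 4. The 8 became 5 without CE+BZA mouse 2 or 3 or Veh mouse 4, 4 without Veh mouse 7, and 5 after quantile normalization. Gstp1 and Gstp2, which rose by 1.06 and 1.02, are near-identical and may share reads.

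**Figure D4:**
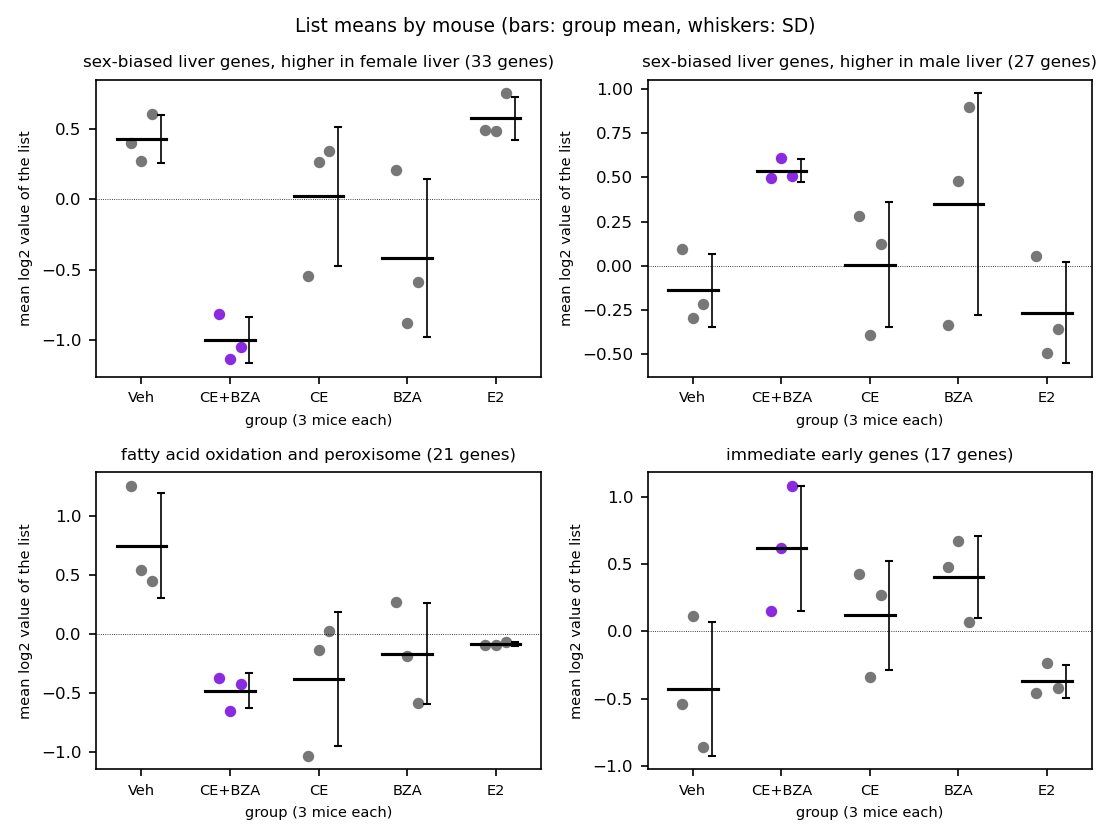
Mean log2 value of the members of 4 gene lists in each of the 15 mice (points, y axis) by treatment group (x axis, 3 mice each), with the group mean as a bar and the SD over mice as a whisker. The CE+BZA mice sit below all Veh mice for the 33 female-biased and the 21 oxidation genes and above all Veh mice for the 27 male-biased and the 17 immediate early genes.

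Of 63 listed genes of fatty acid oxidation and peroxisomes, 21 were in the table, and 11 fell and 0 rose, with a median of -1.22. The mean of the 21 was 1.25, 0.54 and 0.45 in the Veh mice and -0.37, -0.65 and -0.43 in the CE+BZA mice. Besides Hao2, they included Cyp4a10, Cyp4a31 and Cyp4a32, fatty acid omega-hydroxylases that are classical targets of PPAR alpha. Cyp4a10 was at 1.43, 0.45 and 1.53 with Veh and at -0.44, -1.62 and -0.40 with CE+BZA (-1.96, FDR 0.109), Cyp4a32 differed by -1.85 (FDR 0.107) and Cyp4a31 by -1.77 (FDR 0.109). These sequences are near-identical, so the 4 Cyp4a genes among the 11 may be counting the same reads. From 8 to 11 members fell with any of the 6 mice left out.

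Among 30 cytochrome P450 genes, 8 fell (26.7%) and 0 rose (median -0.41), and 4 of the 8 were the Cyp4a genes. Among 28 genes of conjugating enzymes and flavin monooxygenases, 11 fell (39.3%) and 3 rose (10.7%, near the 11.6% of the whole table), with a median of -0.70. Sult2a3 was at 1.63, 1.59 and 2.15 with Veh and at -2.13, -0.54 and -0.35 with CE+BZA (-2.80, FDR 0.109), and Sult2a1 differed by -1.55 (FDR 0.159). Gsta1, an alpha-class glutathione S-transferase that detoxifies lipid peroxidation products, was at 1.96, 1.33 and 2.53 with Veh and at 0.07, -0.27 and 0.24 with CE+BZA (-1.93, FDR 0.108). The 11 became 7 without CE+BZA mouse 2 or Veh mouse 7, and the 3 became 1 without CE+BZA mouse 3 or Veh mouse 7.

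Of 52 listed genes of lipid uptake and droplets, 15 were in the table, with a median of -0.14. Of these 5 fell (33.3%) and 2 rose (13.3%, near the 11.6% of the whole table). Cd36, the fatty acid translocase, was at 1.06, 0.55 and 1.65 with Veh and at -0.68, -0.05 and -0.77 with CE+BZA (-1.59, FDR 0.126). Pparg, the nuclear receptor that drives lipid storage, was at 0.77, 0.61 and 1.18 with Veh and at -0.70, 0.16 and 0.00 with CE+BZA (-1.03, FDR 0.224). Fabp2, a fatty acid binding protein gene, differed by -1.39 (FDR 0.211). The 2 that rose were Lpin1, a phosphatidate phosphatase and coactivator of PPAR alpha (2.32, FDR 0.116), and Enho, which encodes the peptide hormone adropin (1.48, FDR 0.211), and the 2 became 1 without Veh mouse 4. Lpin1 was at -1.24, -0.38 and -1.69 with Veh and at 1.38, 2.38 and -0.11 with CE+BZA. The 5 that fell became 3 without CE+BZA mouse 1 or 2 or Veh mouse 1, and 2 without Veh mouse 7. Of 53 listed genes of fatty acid and sterol synthesis, only 9 were in the table, of which Elovl3 fell and 0 rose. Without Veh mouse 4, 3 rose, and without that mouse or CE+BZA mouse 3, 0 fell.

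Of 48 genes listed as responsive to estrogen receptors, 21 were in the table (median 0.64). Of these 5 rose (23.8%) and 2 fell (9.52%, near the 9.55% of the whole table). Igfbp5 and Igfbp1, which encode binding proteins of insulin-like growth factors, differed by 2.21 (FDR 0.165) and 1.99 (FDR 0.202). Igfbp5 was at -0.84, -0.75 and -1.98 with Veh and at 0.00, 1.61 and 1.45 with CE+BZA. The estrogen sulfotransferase Sult1e1 was at -0.22, 0.65 and -1.41 with Veh and at -2.09, -0.96 and -2.56 with CE+BZA (-1.54, FDR 0.227). The 5 became 8 without CE+BZA mouse 1 and 3 without CE+BZA mouse 2 or Veh mouse 1, and the 2 that fell became 1 without CE+BZA mouse 1 or 3 or Veh mouse 1 or 4.

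Immediate early genes are induced within minutes by growth factors and stress, and 17 of 49 were in the table. Of these 8 rose and 0 fell, with a median of 1.13. The mean of the 17 was -0.54, 0.12 and -0.86 in the Veh mice and 0.15, 0.62 and 1.08 in the CE+BZA mice, so Veh mouse 4 and CE+BZA mouse 1 nearly met. Gadd45g, a growth arrest and DNA damage gene, was at -1.94, -0.75 and 0.01 with Veh and at 0.23, 1.95 and 1.18 with CE+BZA (2.01, FDR 0.175). Zfp36, which encodes an RNA-binding protein that destabilizes cytokine mRNAs, was at -0.20, 0.00 and -0.94 with Veh and at 0.27, 1.26 and 1.42 with CE+BZA (1.36, FDR 0.196). The transcription factor gene Csrnp1 differed by 1.31 (FDR 0.205). The 8 became 5 without CE+BZA mouse 2 or Veh mouse 7, 4 without CE+BZA mouse 3 or Veh mouse 1, and 12 without Veh mouse 4.

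Per1, a period gene of the circadian clock, also belongs to the immediate early list and was at -1.42, -0.41 and -1.04 with Veh and at 0.09, 1.19 and 1.23 with CE+BZA (1.80, FDR 0.193). It was 1 of 2 of the 10 clock genes that rose, with Usp2, a deubiquitinase under clock control (1.31, FDR 0.216), and 0 fell. Without CE+BZA mouse 2 or 3 or Veh mouse 7, 1 clock gene rose. Among 14 genes of the heat shock and unfolded protein responses, 6 rose and 0 fell (median 1.17). They included Ddit4, a stress-induced inhibitor of mTOR (1.54, FDR 0.205), and the endoplasmic reticulum proteins Calr (1.18, FDR 0.207) and Sdf2l1 (1.33, FDR 0.209). Calr was at -0.82, -0.47 and -1.28 with Veh and at 0.19, 0.30 and 0.49 with CE+BZA. The mean of the 14 was lowest in Veh mouse 7 (-1.17, against -0.25 and -0.20 in the other Veh mice). The 6 became 1 without that mouse and 3 without CE+BZA mouse 1 or 2.

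Of 72 listed genes of BMP, TGF-beta and activin signalling, 13 were in the table, and 5 rose (38.5%) and 2 fell (15.4%), with a median of 0.56. Besides Bmp7 and Fst, the ligand gene Gdf9 was at -1.10, -0.92 and -0.11 with Veh and at 0.89, 0.74 and 0.86 with CE+BZA (1.54, FDR 0.167). Gdf15, a stress-induced ligand, was at 0.10, 0.11 and -1.24 with Veh and at -0.48, 2.56 and 3.60 with CE+BZA (2.24, FDR 0.224), so it was high in CE+BZA mice 2 and 3 only. Id4, a target of BMP signalling (-1.21, FDR 0.222), and Hamp2, a hepcidin gene (-1.78, FDR 0.23), fell. Hamp2 is also counted among the female-biased and the acute phase genes that fell. The 5 became 3 without Veh mouse 7, and the 2 became 0 without Veh mouse 1 or CE+BZA mouse 3 and 1 without CE+BZA mouse 2 or Veh mouse 4 or 7. Among 15 phospholipase and eicosanoid genes, 2 fell and 2 rose (13.3% each), near the 9.55% and 11.6% of the whole table. With Pla2g4f, the prostaglandin F receptor gene Ptgfr fell (-1.56, FDR 0.23), and the lipoxygenase Alox12 (1.66, FDR 0.196) and the acyltransferase Lpcat4 (1.37, FDR 0.232) rose. The calls that fell became 1 without CE+BZA mouse 1 or Veh mouse 1 or 7, and those that rose became 0 without CE+BZA mouse 1 or Veh mouse 4 and 1 without CE+BZA mouse 3.

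Acute phase genes, which the liver induces in inflammation, separated the CE+BZA mice from each other. Of 21 in the table, 5 rose (23.8%) and 2 fell (9.52%, near the 9.55% of the whole table), with a median of 1.46. The mean of the 21 was -1.02, -0.57 and -0.33 in the Veh mice and -0.68, 1.90 and 1.0 in CE+BZA mice 1, 2 and 3. CE+BZA mouse 1 was thus among the Veh mice. Without it 14 of the 21 rose, and without CE+BZA mouse 2 only 1 did, while without Veh mouse 1 it was 2. The 2 that fell became 0 without Veh mouse 7 and 1 without any other of the 6 mice. Serpina3k, a serpin gene, was at -2.00, -1.68 and -0.58 with Veh and at 0.10, 0.02 and 0.00 with CE+BZA (1.46, FDR 0.211). Socs3, a feedback inhibitor of cytokine signalling, was at -0.87, -0.66 and -0.57 with Veh and at 0.00, 1.39 and 1.32 with CE+BZA (1.60, FDR 0.211). Prtn3, a neutrophil serine protease, had the largest difference of the list (4.98, FDR 0.208) with CE+BZA mice at -0.29, 6.01 and 5.44. The mean of 16 neutrophil markers in the table was -0.90 to -0.17 in the Veh mice and -0.79, 1.19 and 1.09 in CE+BZA mice 1, 2 and 3. CE+BZA mice 2 and 3 were thus high for both lists. The lists as drawn up share S100a8, S100a9, Ltf, Lcn2 and Prtn3, so the means are not independent. In 10 of the 16 neutrophil markers, 2 or more of the 15 mice were at the floor. The part of neutrophils in the acute phase values was not tested. Of the 16 neutrophil markers, 1 rose (Prtn3, 6.25%) and 0 fell.

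Of 85 listed genes of complement and coagulation, 17 were in the table, and 4 rose (23.5%) and 1 fell (5.88%), with a median of 1.0. Cfd, complement factor D, which adipocytes secrete as adipsin, was at 4.89, 4.55 and 3.15 with Veh and at -0.37, 0.00 and 0.11 with CE+BZA (-4.28, SE 1.08, FDR 0.107). Of the 10 adipocyte markers in the table, 2 fell (20%), Cfd and Car3. The mean of the 10 was 0.08 to 0.63 in the Veh mice and -0.16 to 0.41 in the CE+BZA mice. Of the 10, 1 fell without any of the 6 mice other than CE+BZA mouse 1. The defining adipocyte genes Adipoq and Lep differed by 0.00. In 6 of the 10 adipocyte markers, 2 or more mice were at the floor. A gene at the floor in all 6 mice also differs by 0.00, so this value does not show equal expression. The part of fat cells in the Cfd value was not tested. Besides C8a and C8b, the members that rose were Dusp14 (1.60, FDR 0.207), a phosphatase gene, and Dct (1.09, FDR 0.232), a gene of melanin synthesis. Neither encodes a complement or clotting protein. Without CE+BZA mouse 1, 2 of the 17 rose.

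Among 39 genes of cytokines, chemokines and their receptors, 5 rose (12.8%) and 6 fell (15.4%), close to the shares in the whole table. Without 1 mouse, the 5 became 3 (CE+BZA mouse 2 or 3), 2 (Veh mouse 1) or 8 (Veh mouse 7), and the 6 became 1 (CE+BZA mouse 1) or 3 (Veh mouse 7). The interleukin receptor genes Il17ra (2.09, FDR 0.109), Il12rb1 (2.07, FDR 0.175) and Il1r1 (1.60, FDR 0.205) and the neutrophil chemokine gene Cxcl1 (1.58, FDR 0.224) rose. Besides Ccl22, the chemokine gene Ccl4 (-1.64, FDR 0.223), the interferon gene Ifnk (-1.47, FDR 0.205) and Il1rn, the interleukin 1 receptor antagonist (-1.30, FDR 0.223), fell. Of 63 interferon-stimulated genes only 2 were in the table, of which Gbp10, a guanylate-binding protein gene, fell (-1.23, FDR 0.216).

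Among 41 genes of extracellular matrix and remodelling, 6 fell (14.6%) and 3 rose (7.32%), against 9.55% and 11.6% of the whole table, with a median of 0.00. Besides Lgals1, they included Mmp12, the macrophage metalloelastase, at 0.43, 1.80 and 4.60 with Veh and at -1.41, -0.28 and -0.07 with CE+BZA (-2.86, FDR 0.13). Postn, which encodes periostin, was at 0.50, 1.08 and 1.29 with Veh and at -0.59, -0.28 and -1.32 with CE+BZA (-1.69, FDR 0.174), and the integrin-like gene Itgbl1 differed by -1.82 (FDR 0.208). Adamts3, a procollagen protease (1.60, FDR 0.223), Hapln4, a hyaluronan link protein (1.13, FDR 0.232), and Col7a1, a collagen (1.32, FDR 0.235), rose. The 6 became 3 without CE+BZA mouse 1, and the 3 became 1 without CE+BZA mouse 2 or 3 or Veh mouse 7.

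Among 60 solute carriers, 17 rose (28.3%) and 4 fell (6.67%), with a median of 0.64. Slc7a5, an amino acid transporter, was at -0.68, -0.89 and -2.33 with Veh and at 0.17, -0.03 and 0.71 with CE+BZA (1.58, FDR 0.196). Slc22a7, an organic anion transporter, was at -1.26, -1.31 and -1.98 with Veh and at 0.00, 0.35 and 0.08 with CE+BZA (1.66, FDR 0.213). The zinc transporter Slc30a2 (1.40, FDR 0.205) and the phosphate transporter Slc34a2 (2.35, FDR 0.207) also rose. The nucleoside transporter Slc28a1 (-1.97, FDR 0.15), the anion transporters Slc22a29 (-1.49, FDR 0.167) and Slc26a4 (-2.05, FDR 0.205), and the serotonin transporter Slc6a4 (-1.26, FDR 0.211) fell. The 17 became 6 without CE+BZA mouse 2, 8 without CE+BZA mouse 3, 11 without Veh mouse 1 and 4 without Veh mouse 7, and the 4 became 2 without Veh mouse 1. Among 17 cell cycle genes, the mitotic genes Ect2 (-1.59, FDR 0.165), Kif20b (-1.49, FDR 0.218) and Cenpf (-1.52, FDR 0.23) fell and Rrm2, a ribonucleotide reductase subunit (1.61, FDR 0.222), rose, and the median was 0.15. These calls were 17.6% of the 17 genes that fell and 5.88% that rose, against 9.55% and 11.6% of the whole table. The 3 that fell became 1 without Veh mouse 7, and Rrm2 lost its call without CE+BZA mouse 1 or 2 or Veh mouse 7.

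Markers of liver cell types were read in the same way, and the markers named here were chosen after their values were seen, apart from those already described. Of 18 hepatocyte markers, 4 were in the table, and Pck1, Ass1 and Tat rose by 1.98, 1.41 and 1.38, while the fourth, G6pc, differed by 0.77. Of 9 cholangiocyte and gallbladder markers in the table, Krt23, Prom1 and Tff2 fell (33.3%) and Cdh1 rose (11.1%, near the 11.6% of the whole table). The cholangiocyte keratins Krt19 (0.21) and Krt7 (0.98) did not pass. Of 8 macrophage markers, Mmp12, Gpnmb and Ccr2 fell (37.5%) and 1 rose (12.5%, near the 11.6% of the whole table). The mean of the 8 was -0.16 to 0.81 in the Veh mice and -0.87 to 0.11 in the CE+BZA mice. Of 20 pancreatic acinar markers and 14 erythroid markers, 0 rose and 0 fell. In 19 of the 20 acinar and 7 of the 14 erythroid markers, 2 or more mice were at the floor. The absence of calls therefore does not show equal expression. Of 13 lymphocyte markers, 1 fell (7.69%) and 0 rose, and of 4 stellate cell and fibroblast markers, 1 fell (Postn, 25%) and 0 rose. Of 5 mesothelial, gut and kidney markers, 1 rose and 1 fell, and the 1 endothelial marker in the table did not pass. The part of cell composition in the differences was not tested.

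The other treatments share the 3 Veh mice and the model with this comparison, so their values are given side by side. For Pla2g4f the group means were -0.64 with CE, -0.39 with BZA and 1.44 with E2, against -1.17 with CE+BZA and 2.38 with Veh. For Bmp7 they were -0.08, 0.47 and -0.42, against 1.14 with CE+BZA, and for AA986860 -0.52, 0.64 and -0.36, against 1.19. The groups with CE+BZA and BZA had the highest means of both genes. Tmem200b was at 2.08 ± 1.04 (SD, n = 3) with BZA but at -0.21 ± 0.28 with CE and -0.53 ± 1.02 with E2, next to 2.39 with CE+BZA and -0.62 with Veh. AC152063.2 was at 2.5 ± 2.77 with BZA, -0.96 with CE and -1.70 with E2, next to 3.86 with CE+BZA. The BZA mice spread widely for that gene, with BZA mouse 3 at 5.70 and BZA mice 1 and 4 at 0.78 and 1.03. Mogat1 was low in every treatment, with means of -0.56 for CE, 0.02 for BZA and -0.21 for E2, against 2.20 with Veh. The median difference from Veh of the 33 female-biased genes was -0.54 with CE, -0.69 with BZA and -0.35 with E2, and that of the 21 oxidation genes -1.03, -0.82 and -0.94. For the 17 immediate early genes it was 0.42, 1.04 and 0.13. The 27 male-biased genes had medians of 0.33 with CE, 0.67 with BZA and 0.07 with E2, against 0.68 with CE+BZA. For the 21 acute phase genes the medians were 1.35, 1.26 and 0.68, against 1.46 with CE+BZA.

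**Figure D5:**
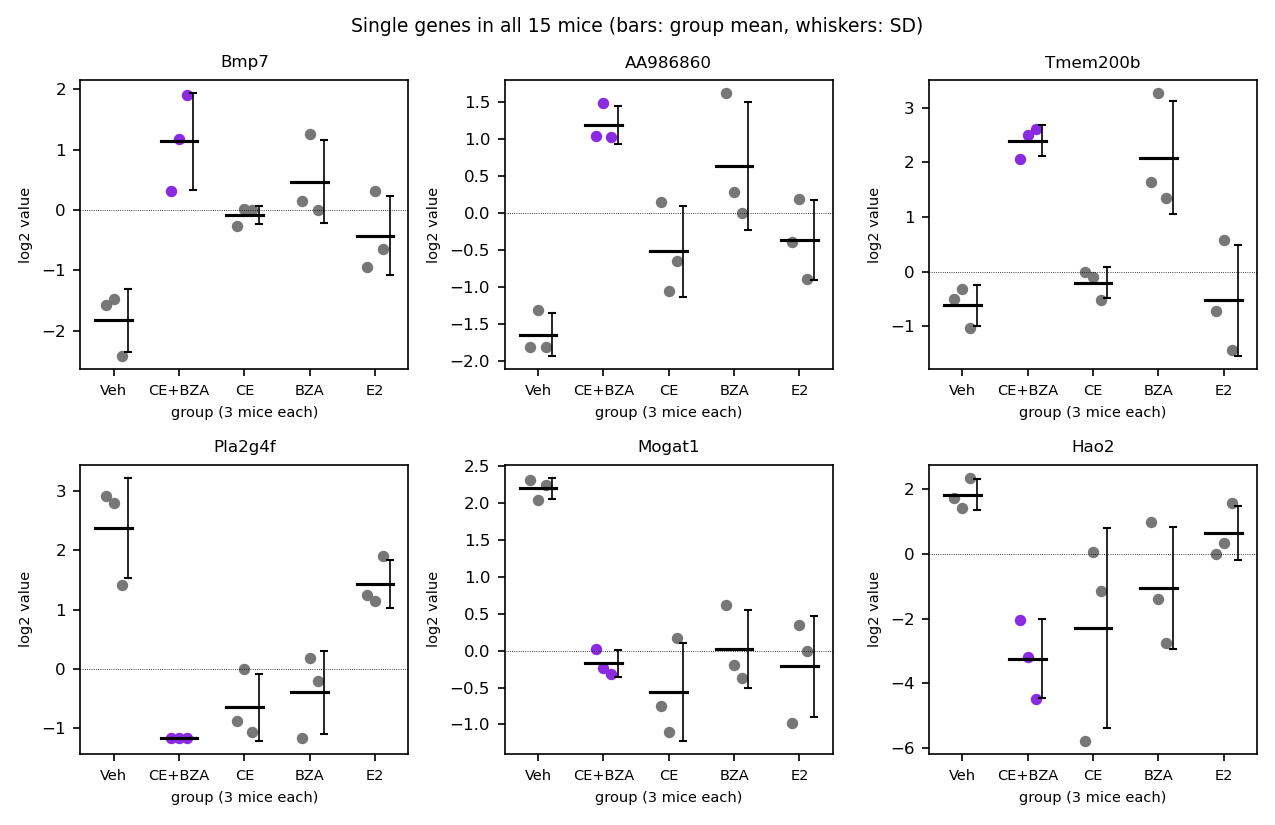
Log2 value relative to the median over 15 mice (y axis) of 6 genes in every mouse (points) by treatment group (x axis, 3 mice each), with the group mean as a bar and the SD as a whisker. Tmem200b is high with CE+BZA and BZA and near the Veh level with CE and E2, Mogat1 is below Veh in all 4 treatments, and the 3 CE+BZA points of Pla2g4f lie at its floor.

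Differences between CE+BZA and each other treatment were tested in the same model. By the same rule of fold change and FDR, 1 gene differed from CE (0.0393%), 0 from BZA (0%) and 4 from E2 (0.157%). At an unadjusted p under 0.05 with no limit on the fold change, the numbers were 369, 223 and 337. Of the 92 genes selected by the naming rule, only A1bg passed, against E2. It was at 4.03, 4.59 and 4.91 in the E2 mice, a difference of CE+BZA from E2 of -5.92 (SE 0.60, FDR 5.6e-05). The other 4 genes lay outside the rule and are named with their values known. The female-biased P450 genes Cyp3a44 and Cyp3a41a, paralogs that may share reads, were lower with CE+BZA than with E2, with differences of -4.40 (FDR 0.00463) and -3.08 (FDR 0.0487), and the predicted gene Gm15622 was higher by 4.09 (FDR 0.0363). Without CE+BZA mouse 1 or 3, A1bg and Cyp3a44 passed, and without CE+BZA mouse 2 or E2 mouse 5, A1bg did. Relative to Veh, Cyp3a44 differed by 0.51 and Cyp3a41a by -0.92 with CE+BZA, and neither passed. The predicted gene Gm9847 was lower with CE+BZA than with CE, with a difference of -3.28 (FDR 0.0499), and it lost this call whichever mouse of the 2 groups was left out. Against BZA, Ctrb1 and Reg1 passed without BZA mouse 4 and the predicted gene Gm11175 without CE+BZA mouse 3. Ctrb1 and Reg1 are pancreatic acinar markers, and the mean of the 20 such markers was 5.41 in BZA mouse 3. The next mouse, BZA mouse 1, was at 0.60. For the 10 adipocyte markers BZA mouse 3 was at 3.27, and the next, Veh mouse 7, at 0.63. The part of this mouse in the comparison with BZA was not tested. The smallest FDR of the named genes against CE was 0.0769, for Slc34a2, which was at -2.91 ± 1.69 with CE and 1.30 with CE+BZA. Tmem200b and AC152063.2 were higher with CE+BZA than with CE by 2.60 (SE 0.59) and 4.82 (SE 1.12), both at an FDR of 0.104. Against E2 they were higher by 2.92 and 5.56, both at an FDR of 0.0521. Against BZA, the difference was 0.31 (SE 0.59) for Tmem200b, 0.67 (SE 0.55) for Bmp7, 0.55 (SE 0.53) for AA986860 and -0.77 (SE 0.54) for Pla2g4f, which leaves room for differences of 1 or more on the log2 scale in each gene.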

How the data were processed

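Liver RNA-seq of 15 mice was used, with 3 mice in each of 5 groups assigned by the sample labels. According to the study's methods, the authors mapped trimmed reads with TopHat, used StrandNGS to count reads per gene (also partial reads and genes outside the annotation) and applied DESeq normalization. The submitters' processing notes list CASAVA 1.8.2 and TopHat2 0.5, and the builds mm10 and hg19. The labels speak of 2 sequenced samples in each group, whereas the methods give 3 and the table holds 3 columns of values for each. The methods give single-end and the labels paired-end reads, and the strand setting of the counting is not given in the sources used here, so overlapping genes are uncertain. The deposited values are log2, relative to the median of each gene, and were used without pseudocount or filter. The fold-change selection of the table means that the FDR covers listed genes only. Since the selection and the tests use the same mice, p-values and FDR within the table are also affected by it. Columns without a sample numbered 0, and identical pairs of mice 0.

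A linear model with 5 groups was fitted with limma 3.58.1 (R 4.3.3), with Benjamini-Hochberg adjustment over the 2545 genes. All tests were two-sided. Each replicate is a separate animal. Named genes were those passing the FDR, the 10 of smallest p per direction with a fold change above 2 and no overlap between mice (symbols of the Gm, LOC, Rik and -ps kinds left out), up to 4 per list and direction, and A1bg, Cfd and Pparg. A few genes named by this rule are left unreported but count in the totals. The comparison, the lists and the rule were chosen with earlier results of these data known. Summaries used Python 3.11.15, numpy 2.4.6 and pandas 2.3.3, and plots matplotlib 3.10.9. The script was tested on simulated data. Gene positions were matched by symbol to the GRCm38 annotation (2168 genes) and promoters to RefSeq (GRCm38.p6).

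Alternatives were quantile normalization, centring each mouse on its median, leaving out genes with mice at the floor, no shrinkage of the variance, a mean-variance trend (on mean values, since read depth is not given in the table), a replicate block, only the 6 mice, other thresholds, and leaving out each mouse in turn.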

Additional observations from a re-analysis of the deposited data

How the results depend on the processing

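The 3 genes that passed against Veh became 15 after quantile normalization, 7 after centring each mouse on its median, 14 without the genes with 2 or more mice at the floor, 13 without shrinkage of the variance, 6 with a mean-variance trend and 20 at an FDR under 0.1. The cause was not tested. With only the 6 mice of both groups, 2 genes passed, Klhdc9 and Mogat1, neither of which was among the 3. Leaving out 1 of these 6 mice gave 0 to 3 genes. Genes at an unadjusted p, 21.1% of those tested, became 5.03% at a p under 0.01 and 13.8 to 20.6% without 1 of the 6 mice (13.8% without CE+BZA mouse 3). Against CE, the 1 gene became 9 after quantile normalization, 0 after centring, 5 without floor genes and 0 without shrinkage, and 0 to 0 without 1 mouse of either group. Against BZA, the 0 genes became 0 to 2 without 1 mouse, with 2 without BZA mouse 4 and 1 without CE+BZA mouse 3. Against E2, the 4 genes became 10 after quantile normalization, 9 without floor genes and 1 without shrinkage. They became 1 to 4 without 1 mouse of either group, and more than that without Veh mouse 1 or 7 or BZA mouse 1 or 4. Without Veh mouse 7 or BZA mouse 1, Pla2g4f was among the genes that passed against E2. Quantile normalization moved the median difference of all genes by -0.06. None of 1188 values of named genes under the alternatives reversed (0), and 216 no longer passed their threshold. The replicate numbers recur between groups, and CE+BZA and Veh share number 1 only. Deviations of mice with the same number correlated at only -0.05 to 0.10 over 13 pairs. A correlation over all genes cannot exclude a shared effect on some of them, so whether the numbers pair the mice is not known. A block for the number leaves 4 residual degrees of freedom, against 10 without it. With the number as a replicate block, 0 genes passed against Veh at the FDR and 8.64% (220 genes) at an unadjusted p, 0 against CE and 1 against E2. With this block, 7 female-biased genes fell instead of 18 and 2 oxidation genes instead of 11. Of the genes that rose, 1 immediate early gene remained instead of 8 and 0 heat shock genes instead of 6. Only 3 mice per group and the unknown read depth limit what could be called.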

Other observations

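The genes in this section were chosen after their values were seen. Klhdc9, a kelch-domain gene, had the largest difference of the table, -5.62 (SE 1.33, FDR 0.0836). Its values over the 15 mice fell into separate bands. The Veh mice were at 5.36, 5.41 and 5.67 and the CE+BZA mice at -0.32, 0.00 and -0.12. All BZA mice were in the lower band, from -0.32 to -0.10, whereas CE mice 3 and 6 (4.93 and 5.4) and E2 mice 4 and 5 (5.22 and 5.17) were in the upper band, and CE mouse 7 and E2 mouse 3 were at -0.32. The bands thus divided mice within the CE and E2 groups.

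The acute phase genes Saa1, Saa2 and Lcn2 were each highest in CE+BZA mouse 2 and lowest in CE+BZA mouse 1 of that group. In CE+BZA mice 1, 2 and 3, Saa1 was at -0.78, 5.30 and 2.35, Saa2 at -0.93, 5.89 and 2.13, and Lcn2 at -1.10, 4.39 and 2.44. None of these genes passed against Veh, with unadjusted limma p-values of 0.105, 0.136 and 0.114. CE mouse 3 (4.84 for Saa1) and BZA mouse 4 (4.27) were also high, and the other mice of those groups were between -1.32 and 0.16. The metallothionein genes Mt1 and Mt2 were at 2.75 and 3.70 in CE+BZA mouse 2 and at -2.04 and -1.74 in CE+BZA mouse 1. Scara5, a ferritin receptor gene, was at -0.11, its floor, in all 3 Veh mice and at 0.88, 4.82 and 2.17 in the CE+BZA mice (difference 2.73, FDR 0.229).

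Among 578 genes of the table with predicted or pseudogene names, 48 rose (8.3%) and 62 fell (10.7%), near the 11.6% and 9.55% of the whole table. By annotated type, 12 of 110 processed pseudogenes rose and 19 fell, and 13 antisense genes rose and 11 fell. Antisense values cannot be told apart from those of the partner gene if the counting ignored strand.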
